A study of Mus musculus with 24 samples.

Results

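The 10 genes followed here, Kdr, Flt1, Pecam1, Tek, Tie1, Emcn, Cldn5, Egfl7, Esam and Erg, are widely used to mark endothelial cells, and they were taken as a fixed set from 19937 genes measured in mouse hindlimb buds. Each was read from the array probe set annotated with its symbol alone, and each of the 10 genes had exactly 1 such probe set. The study asked which transcripts change in the limb buds of mice that lack 1 copy of Nipbl, the gene for the factor that loads cohesin onto chromosomes. Right and left hindlimb buds of an E10.5 embryo gave 1 RNA sample and 1 array, and there were 12 wild type embryos and 12 Nipbl+/- embryos of the RRS strain, matched for stage. Each embryo was labelled a biological replicate, and the mutants were heterozygous. The study described the embryos as littermates, but litters were not named in the labels, so embryos of a litter could not be grouped.

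Endothelial cells line all blood vessels and the lymphatics. In the limb bud, vessels grow in from the trunk early and remodel as the mesenchyme condenses. VEGF made by surrounding cells acts on endothelial receptor kinases to drive growth and migration, the angiopoietin-Tie pathway stabilises the vessels that form, and adhesion proteins at endothelial junctions seal them. The hindlimb bud is a mixed tissue, so an endothelial transcript measured in it varies with the share of endothelial cells and with the RNA in each of them, and fewer cells of a type and less RNA per cell cannot be told apart here.

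The arrays gave log2 intensities, and a difference of 1 on this scale is a doubling. Brightness depends on the probes as well as on the transcript, so a level is not read as abundance relative to another gene, and each gene is compared between embryos only. Nipbl served as the check of the labels. Its mean was 10.52 ± 0.12 over the wild types and 9.86 ± 0.12 over the mutants (SD, n = 12 each), which is a ratio of 0.630, and the genotypes did not overlap. The hindlimb transcription factors Tbx4 (11.71 ± 0.08 over the wild types, SD, n = 12) and Pitx1 (11.54 ± 0.09) had probe sets at the 96.6th and 95.7th percentile of brightness, and the probe sets of the endothelial genes lay between the 61.3rd and the 93.8th percentile. By Xist and Y-linked transcripts, 8 wild type and 3 mutant embryos were female, so sex was not balanced between the genotypes.

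Promoters of 8 of the 10 genes were in the RefSeq table for GRCm38.p6, with 12 start sites among them. Pecam1 and Esam were not matched. ETS factors, a family that includes Erg itself and is known for its part in endothelial transcription, recognise a GGAA core. The letters AGGAAG on either strand were present in 6 of the 12 windows, from 250 bases before to 50 bases after the start, and in 5 of the 8 genes. They were present in 35.4% of all 32851 promoter windows, so the motif is common. The longer ETS motif CCGGAAG was present in 0 of the 12 windows and in 8.86% of all windows. The GATA motif AGATAA was in 2 windows (11.2% of all windows), and the SOX motifs ACAATG and ACAAAG were in 1 and 2 windows (12.6% and 18.7% of all windows). These searches covered both strands. None of the motifs contains another, though CCGGAAG and AGGAAG end in the same letters. A match is a description of the sequence only. The 250 bases before the outermost start of 3 genes are shown, because they span the range of matches and Egfl7 and Cldn5 stood apart from the rest in their covariation. In these stretches Egfl7 has 3 matches, Tie1 has 1 match and Cldn5 has 0 matches. Whether matches go with covariation was not tested. Egfl7 has 3 start sites in the table, and 1 of their windows has 0 matches. Each is written 5′ to 3′ on the strand of the gene, with AGGAAG or its reverse complement in capitals.
Egfl7, chr2:26580833-26581082, plus strand: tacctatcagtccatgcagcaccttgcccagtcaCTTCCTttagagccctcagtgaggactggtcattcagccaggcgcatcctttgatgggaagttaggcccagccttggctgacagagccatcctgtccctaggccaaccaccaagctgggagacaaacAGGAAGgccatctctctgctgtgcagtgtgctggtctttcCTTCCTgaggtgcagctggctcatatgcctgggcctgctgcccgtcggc
Tie1, chr4:118489850-118490099, minus strand: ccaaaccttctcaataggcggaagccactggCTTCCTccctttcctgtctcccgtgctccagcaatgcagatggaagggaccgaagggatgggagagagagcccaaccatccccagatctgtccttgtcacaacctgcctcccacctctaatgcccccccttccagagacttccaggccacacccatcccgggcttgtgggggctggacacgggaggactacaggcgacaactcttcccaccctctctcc
Cldn5, chr16:18776597-18776846, plus strand: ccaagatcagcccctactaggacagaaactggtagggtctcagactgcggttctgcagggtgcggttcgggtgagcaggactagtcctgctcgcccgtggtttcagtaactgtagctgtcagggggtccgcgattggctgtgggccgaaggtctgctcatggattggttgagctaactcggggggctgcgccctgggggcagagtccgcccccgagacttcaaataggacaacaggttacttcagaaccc

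No change of the endothelial genes was detected in Nipbl+/- hindlimb buds. Of the 10 genes, 0 rose and 0 fell at an adjusted p under 0.05 in limma across all genes, where 0.286% of the 19937 genes rose and 0.527% fell. At an unadjusted p under 0.05, 0 of the 10 genes differed, and the lowest unadjusted p was 0.186. The ratios of mutant to wild type intensity ran from 0.978 to 1.06. The 95% intervals of these ratios reached from 0.883 at the lowest to 1.19 at the highest over the 10 genes. The median log2 difference was 0.03 for the 10 genes and -0.0049 for all genes. With sex in the model the median of the 10 genes was 0.046, and the intervals reached from 0.864 for Tek to 1.26 for Erg. The genotypes overlapped in range for all 10 genes. Below, the lowest, the median and the highest embryo of each genotype are given in that order (log2 intensity, n = 12 per genotype).

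**Figure D1:**
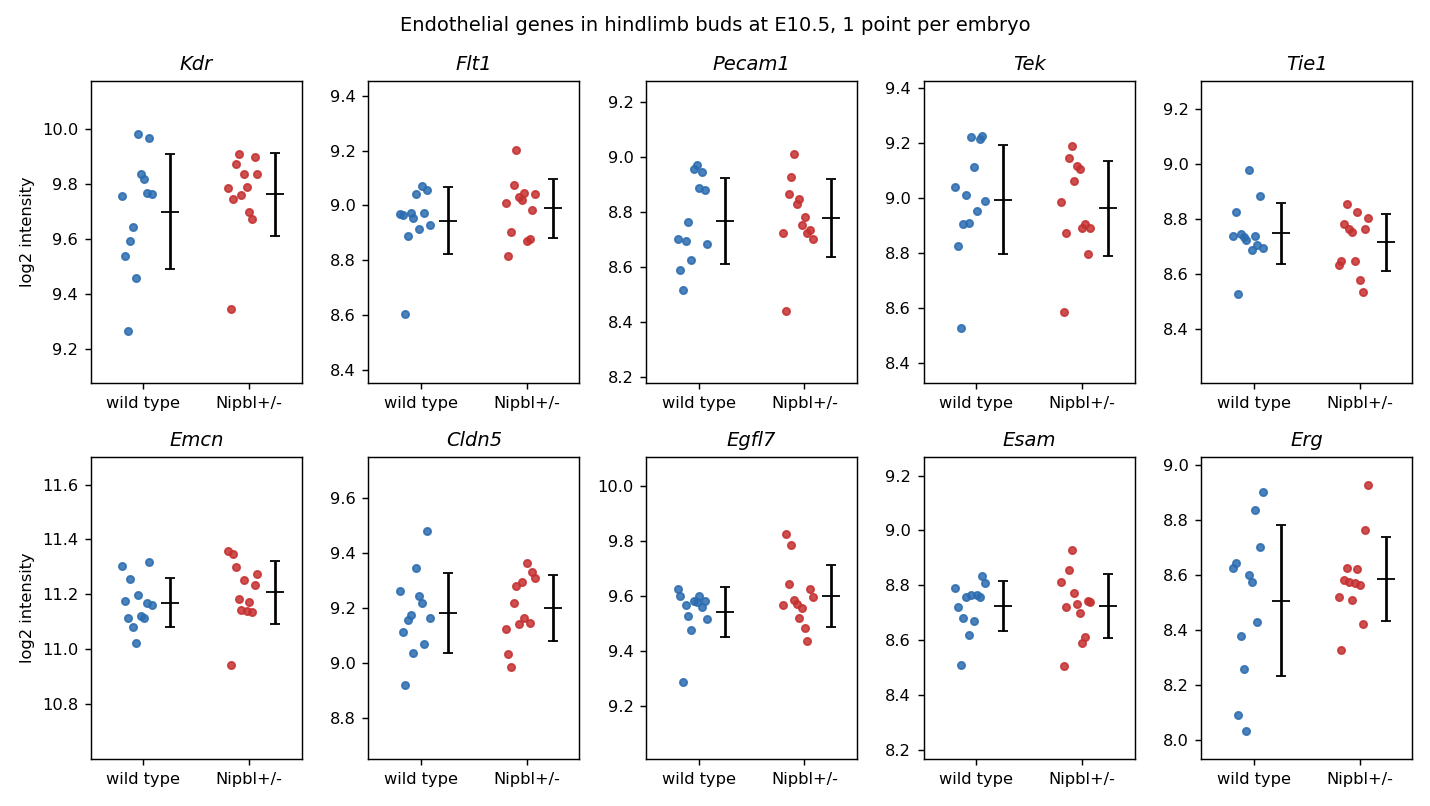
Log2 intensity of each of the 10 endothelial genes in 12 wild type (blue) and 12 Nipbl+/- (red) embryos, 1 point per embryo, with black marks for mean and SD and a vertical axis of its own for each gene. The clouds of the genotypes overlap for every gene, and in most panels 1 embryo of a genotype lies below the rest.

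Kdr and Flt1 encode the VEGF receptors, Kdr the main signalling receptor of endothelial cells and Flt1 a receptor that also holds VEGF back from Kdr. Kdr measured 9.27, 9.76 and 9.98 in wild types and 9.34, 9.79 and 9.91 in mutants. Its ratio was 1.04 (95% interval 0.945 to 1.15, limma adjusted p = 0.892), and 9 of 12 mutants exceeded the mean of the wild types. Flt1 measured 8.61, 8.97 and 9.07 in wild types and 8.82, 9.01 and 9.20 in mutants. For Flt1, 8 of 12 mutants exceeded the mean of the wild types and the ratio was 1.03 (0.965 to 1.103, adjusted p = 0.883). The lowest embryo of both receptors was the same in each genotype, wild type replicate 3 and mutant replicate 2.

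Tek, the receptor of the angiopoietins, and Tie1, its orphan partner, were the only genes of the 10 with a negative difference. Tek measured 8.52, 8.999 and 9.23 in wild types and 8.58, 8.94 and 9.19 in mutants, a ratio of 0.978 (0.883 to 1.08, adjusted p = 0.969). Tie1 measured 8.53, 8.73 and 8.98 in wild types and 8.53, 8.76 and 8.86 in mutants, a ratio of 0.978 (0.917 to 1.04, adjusted p = 0.930). The medians and the means of Tie1 differed in sign, and 7 of 12 mutants exceeded the mean of the wild types, so the direction was not that of most embryos.

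Pecam1, Cldn5 and Esam encode proteins of endothelial cell contacts: the adhesion molecule CD31, the claudin of endothelial tight junctions and an immunoglobulin-like adhesion molecule. Pecam1 measured 8.52, 8.73 and 8.97 in wild types and 8.44, 8.77 and 9.01 in mutants, with a log2 difference of 0.01 (standard error 0.059). Cldn5 measured 8.92, 9.17 and 9.48 in wild types and 8.99, 9.19 and 9.36 in mutants, with a difference of 0.02 (standard error 0.054). For both, 6 of 12 mutants exceeded the mean of the wild types. Esam, at 8.51, 8.76 and 8.83 in wild types and 8.51, 8.74 and 8.93 in mutants, had the smallest difference of the 10, 0.0023 (standard error 0.044). The adjusted p of these 3 genes in limma lay between 0.979 and 0.997.

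Emcn encodes a sialomucin of the endothelial surface that is abundant in capillaries and veins. It measured 11.02, 11.17 and 11.32 in wild types and 10.94, 11.21 and 11.36 in mutants, a ratio of 1.03 (0.965 to 1.09, adjusted p = 0.896). Egfl7 encodes a protein that endothelial cells secrete into the matrix around the vessel. It measured 9.29, 9.57 and 9.63 in wild types and 9.44, 9.58 and 9.83 in mutants, and its ratio of 1.04 (0.979 to 1.11) had the lowest adjusted p of the 10 genes, 0.766. Its lowest wild type was replicate 3 and its highest mutant replicate 2. Without these 2 embryos, a setting added after seeing the data, its log2 difference went from 0.059 to 0.015 (limma adjusted p = 0.938). Erg, the ETS transcription factor, had the widest spread among the wild types (SD 0.275), and Tek among the mutants (SD 0.173). Erg was at 8.03, 8.59 and 8.90 in wild types and 8.33, 8.57 and 8.93 in mutants. Its ratio was the highest, 1.06, with the least precision (0.936 to 1.19, adjusted p = 0.885), and was 1.11 with sex in the model (0.983 to 1.26, adjusted p = 0.680). For Erg, 10 of 12 mutants exceeded the mean of the wild types, which, at 8.51, was itself below the median of the wild types.

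**Figure D2:**
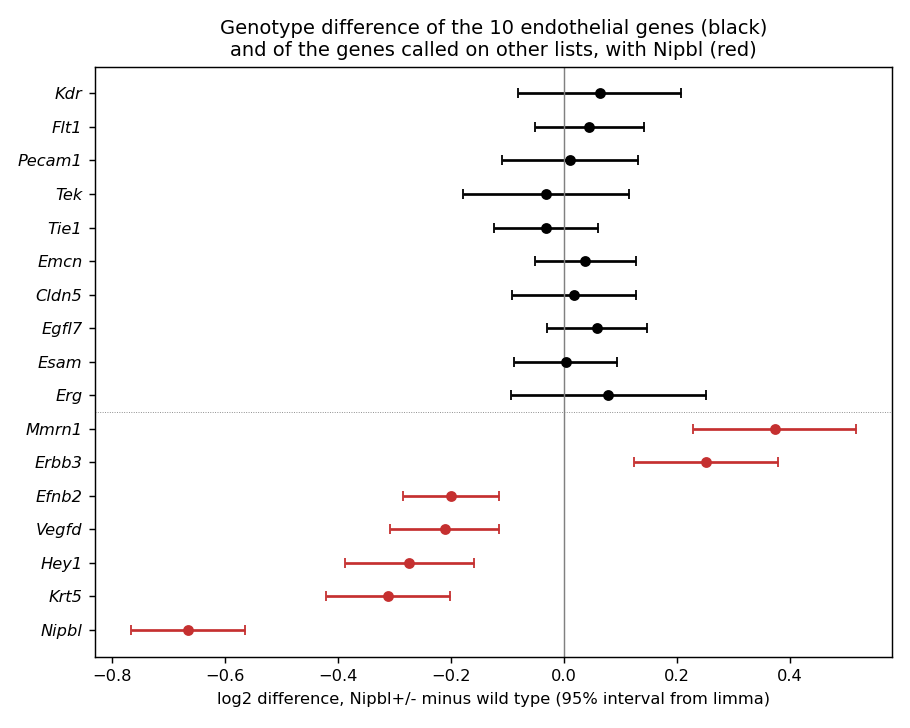
Log2 difference, Nipbl+/- minus wild type, with its 95% interval from limma, for the 10 endothelial genes (black) and, in red, for the genes that passed the test on the other marker lists, with Nipbl. Every black interval includes 0, the widest belongs to Erg, and Mmrn1 and Erbb3 lie above 0 while Efnb2, Vegfd, Hey1, Krt5 and Nipbl lie below it.

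Outside the 10 genes, a few vascular genes did pass the test. Of 40 other endothelial genes, among them the cadherin gene Cdh5 (ratio 0.978, adjusted p = 0.868), 1 rose and 0 fell, with a median log2 difference of -0.01. Ets1, an ETS factor on this list, fell in limma with array width, the interquartile range of an array, as a covariate (adjusted p = 0.0331). That setting was added after seeing the data. The study listed Ets1 as lower with a test of its own. The gene that rose was Mmrn1, which encodes the secreted protein multimerin 1 of platelets and of endothelium, lymphatic endothelium above all. Mmrn1 measured 7.64, 8.10 and 8.30 in wild types and 8.08, 8.49 and 8.65 in mutants, and 12 of 12 mutants exceeded the mean of the wild types although the ranges overlapped. Its ratio was 1.29 (log2 difference 0.37, standard error 0.070, limma adjusted p = 0.00432), and the difference was 0.35 with array width as a covariate. The platelet genes measured beside it gave 0 higher and 0 lower of 6 (median log2 difference 0.05), and Pf4, the platelet chemokine, had a ratio of 1.02 (adjusted p = 0.980).

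Of 14 genes of arterial, venous and lymphatic identity, 0 rose and 2 fell. Hey1, a transcriptional repressor downstream of Notch that acts in arterial endothelium and in other tissues, measured 10.00, 10.19 and 10.43 in wild types and 9.75, 9.93 and 10.14 in mutants. Its ratio was 0.827 (adjusted p = 0.00913). Efnb2, the ligand ephrin-B2 of arterial endothelium, which limb mesenchyme can also express, measured 9.66, 9.84 and 9.94 in wild types and 9.48, 9.62 and 9.79 in mutants, with a ratio of 0.871 (adjusted p = 0.0109). For both, 12 of 12 mutants were under the mean of the wild types. Dll4, the Notch ligand of arterial endothelium, had a ratio of 1.02 (adjusted p = 0.920). The call of Efnb2 was lost when the array medians were set to 0 (adjusted p = 0.121, from 0.000241 to 0.121 over the alternatives).

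Of 12 genes for angiogenic ligands or for Nrp1, the co-receptor of VEGF and semaphorins, 0 rose and 1 fell. Vegfd, a ligand of the lymphatic VEGF receptor, measured 8.70, 8.85 and 9.09 in wild types and 8.51, 8.64 and 8.89 in mutants, a ratio of 0.864 (adjusted p = 0.0229). In 11 of 12 mutants it was under the mean of the wild types. Its call was lost with sex in the model (adjusted p = 0.118) and with array medians at 0 (adjusted p = 0.119). Vegfa, the main ligand of Kdr and Flt1, was 9.52 ± 0.09 over the wild types and 9.52 ± 0.12 over the mutants (SD, n = 12 each, ratio 0.995, adjusted p = 0.989).

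Markers of the other cells of the bud were read in the same fit. Of 12 mural cell genes, which mark the pericytes and smooth muscle around vessels, 0 passed the test in either direction, and those with the smallest p were Tagln (ratio 0.830, adjusted p = 0.439), Acta2 (0.657, adjusted p = 0.595) and Abcc9 (1.20, adjusted p = 0.670). Of 16 macrophage genes 0 passed, with a median log2 difference of -0.10, and C1qb was nearest to the threshold (ratio 0.848, adjusted p = 0.147, and 0.0424 with array width as a covariate), followed by Csf1r (0.915, adjusted p = 0.247) and C1qc (0.910, adjusted p = 0.257). Of 12 erythroid genes 0 passed. The smallest p belonged to the erythroid transcription factor Gata1 (ratio 0.875, adjusted p = 0.0809), which passed with array width as a covariate (0.0389) and with replicate number as a block (0.0380), then to the embryonic globin Hbb-bh1 (0.934, adjusted p = 0.685) and Ermap (0.942, adjusted p = 0.718).

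Of 14 surface ectoderm genes 0 rose and 1 fell, the basal keratin gene Krt5 (ratio 0.806, adjusted p = 0.00171), and the epithelial adhesion gene Epcam rose with the replicate block (adjusted p = 0.0448). Of 6 Schwann cell and neural crest genes 1 rose, the neuregulin receptor gene Erbb3 (ratio 1.19, adjusted p = 0.0499), with 0 lower, and its call was lost with sex in the model (adjusted p = 0.169), with array medians at 0 (0.0549) and without the narrowest array of each genotype (0.0891). In the lists of 14 limb mesenchyme genes, 8 muscle precursor genes and 6 platelet genes, 0 passed in either direction. In the mesenchyme list the smallest p in limma belonged to Hand2 (ratio 0.919, adjusted p = 0.208), Lmx1b (1.11, adjusted p = 0.208) and Hoxd10 (1.06, adjusted p = 0.312). The study, with another test on these arrays, listed Hand2 as lower and Hoxd10 as higher. Its PCR gave the same directions, and of these 2 genes only Hoxd10 had a p under 0.05 there (Student's t test). In the muscle list the smallest p in limma belonged to Pax3 (1.104, adjusted p = 0.420), Myod1 (0.927, adjusted p = 0.790) and Myog (1.04, adjusted p = 0.898). In the platelet list it belonged to Itga2b (1.03, adjusted p = 0.863), Gp5 (1.04, adjusted p = 0.892) and Gp9 (1.04, adjusted p = 0.905).

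The second question was whether the endothelial genes moved together from embryo to embryo, as they would be read if they measured vessel content. Each gene was centred on its mean over all arrays, and the 10 genes were averaged in each embryo. The lowest, median and highest of these means on the log2 scale were -0.30, 0.02 and 0.15 in the wild types (SD 0.12, n = 12), and the mutants had -0.19, 0.02 and 0.13 (SD 0.089, n = 12). The embryos at the bottom were wild type replicate 3 and mutant replicate 2. The next lowest embryos were at -0.15 and -0.09. Wild type replicate 3 was the lowest wild type embryo for 8 of the 10 genes, and mutant replicate 2 the lowest mutant embryo for 7 of them.

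These 2 embryos also had the narrowest arrays. The interquartile range of all probe sets of an array, its width, lay between 3.34 and 3.78 for the wild types and between 3.40 and 3.84 for the mutants, with those replicates at the bottom of each range. The mean over the endothelial genes followed width closely, with a Pearson correlation of 0.936 across wild type embryos and 0.793 across mutant embryos (n = 12 each). Many other genes did the same. The first principal component of all genes, after genotype means were removed, held 34.3% of the variance and had a correlation of 0.992 in size with width. Over single genes, 55.8% had a correlation above 0.5 in size with width. This correlation went with the brightness of the probe set, with a median of 0.49 in the brightest 4984 and -0.47 in the dimmest 4985 genes. The 10 endothelial genes were all on the positive side, from 0.305 for Egfl7 to 0.878 for Esam. What set the width of an array was not tested.

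**Figure D3:**
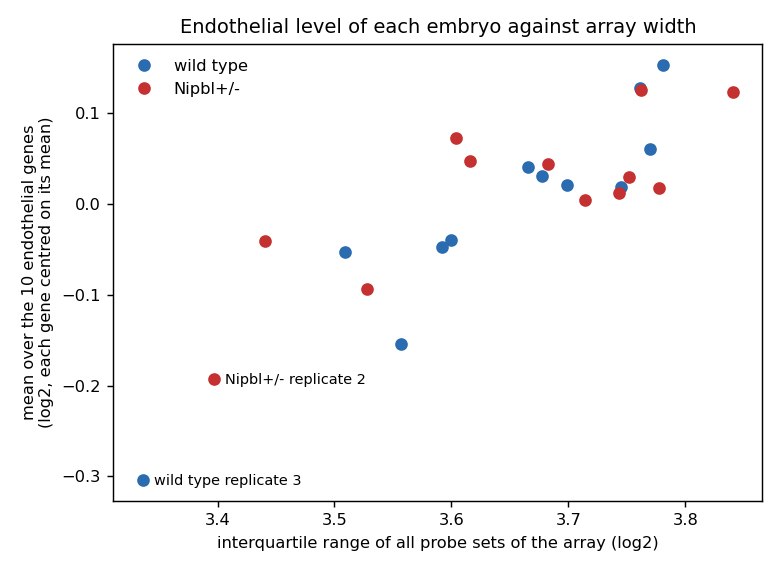
Mean over the 10 endothelial genes in each embryo (log2, each gene centred on its mean) against the interquartile range of all probe sets of its array (log2), for wild type (blue) and Nipbl+/- (red) embryos. The points rise from the lower left, where wild type replicate 3 and Nipbl+/- replicate 2 lie at -0.30 and -0.19, to embryos with wide arrays at up to 0.15.

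Pairs of endothelial genes were correlated across the 24 embryos with genotype means removed. All 45 pairs had a positive Pearson correlation, with a median of 0.518 and a range from 0.075 for Emcn and Egfl7 to 0.854 for Flt1 and Esam, and the median of Spearman's rho was 0.459. In permutation tests within genotype (two-sided, 100000 resamples, adjusted over the 45 pairs), 28 pairs passed 0.05 for Pearson's r and 25 for Spearman's rho. The 28 pairs were those with a correlation of at least 0.460, a value that 13.4% of all gene pairs reached, while 11.5% lay at or below its negative. For each pair, the 2 embryos farthest from the median of its first-named gene were also left out, and the median correlation was then 0.414. The second gene of the pair did not enter this choice, so an outlying embryo of that gene could remain. Over pairs of all genes the median was 0.009, and the median size of these correlations, signs left aside, was 0.286. These values, and the 13.4% and 11.5% before them, cover genes of every brightness. In 4 groups of genes from dimmest to brightest, the median correlation with array width was -0.47, -0.61, 0.51 and 0.49. The endothelial genes lay between the 61.3rd and the 93.8th percentile of brightness. Pairs of other genes of like brightness were not tested.

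With array width removed from each gene as well, the median over the 45 pairs was 0.235, 34 pairs were positive, and pairs above 0.5 went from 24 to 7. Over pairs of all genes, of every brightness, the median was then 0.019 and the median size 0.177. The pairs named next are examples not set by a rule, and Kdr and Cldn5 had the highest correlation of the 45 with width removed. The receptors Kdr and Flt1 went from 0.775 (rho 0.706, adjusted permutation p = 0.00015 and 0.00116, r without the farthest embryos 0.555) to 0.235. Tek and Tie1 went from 0.518 (rho 0.344, adjusted permutation p = 0.0246 and 0.156, r without the farthest embryos 0.326) to -0.02. Pecam1 and Tek went from 0.846 (rho 0.772, adjusted permutation p = 9e-05 and 0.0009, r without the farthest embryos 0.788) to 0.566. Kdr and Cldn5 did not lose their correlation, which was 0.760 (rho 0.723, adjusted permutation p = 0.00015 and 0.00112, r without the farthest embryos 0.668) before and 0.857 after width was removed. The pairs thus differed widely in the correlation that remained beside width.

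**Figure D4:**
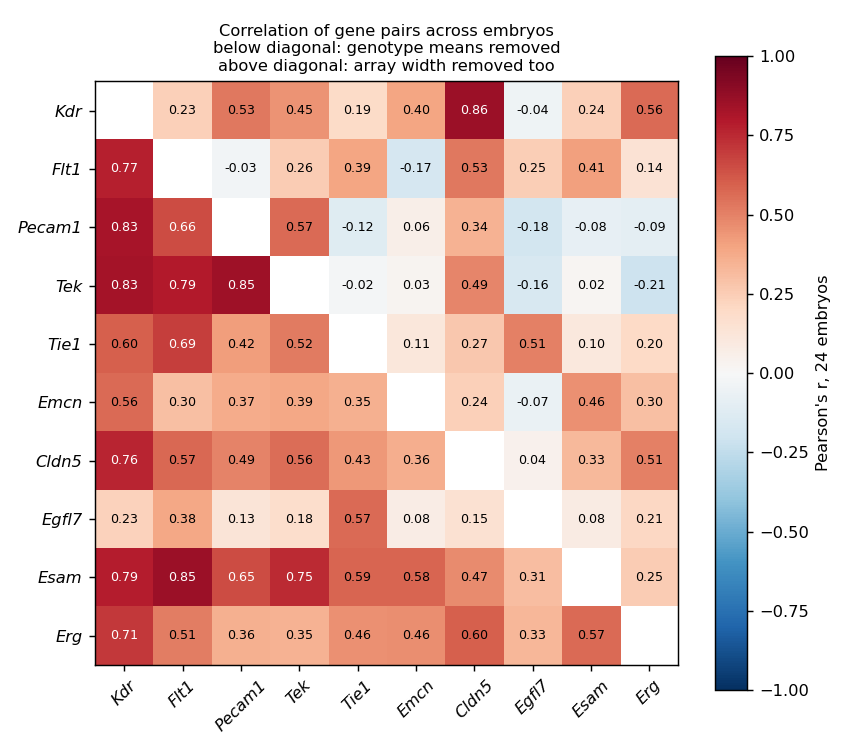
Pearson correlation of each pair of the 10 endothelial genes across 24 embryos, with genotype means removed (below the diagonal) and with array width removed too (above it), blue where negative and red where positive. All pairs are positive below the diagonal, the row of Egfl7 is the palest there, and above the diagonal Kdr with Cldn5, at 0.86, is the darkest cell.

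Egfl7 stood least close to the rest. Its correlation with the mean of the other 9 genes was 0.319 over all embryos, against 0.945 for Kdr. Within wild type embryos it was 0.825 (n = 12) and its pairs ran from 0.472 to 0.861. Within mutant embryos it was -0.186 (n = 12), and without mutant replicate 2, in which Egfl7 was at its highest (9.83) and 7 other genes were at their lowest, it was 0.682 (n = 11). The difference between the genotypes in this correlation was not tested, and 1 embryo set its sign in the mutants.

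Across all genes, the slope of each gene on Kdr was tested in limma with genotype in the model. Of the other 9 endothelial genes, 8 had a positive slope at an adjusted p under 0.05, but so had 23.7% of all 19936 genes, and 26.5% had a negative slope. The steepest were Erg (slope 0.86 log2 per log2 of Kdr, standard error 0.18, adjusted p = 0.000498) and Tek (0.85, standard error 0.12, adjusted p = 3.58e-05). Egfl7 had 0.13 (standard error 0.12, adjusted p = 0.381). Of the 40 other endothelial genes 13 had a positive and 2 a negative slope, and of 12 erythroid genes 8 had a positive and 0 a negative slope. In the muscle precursor and Schwann cell lists, 3 of 8 and 2 of 6 had a negative slope and 0 a positive slope. Mural cell genes gave 1 positive and 3 negative slopes of 12. The shares of all genes cover every brightness, and slopes of genes of like brightness were not compared.

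With array width as a covariate, 1 gene of 19936 (0.00502%) retained a positive slope on Kdr, and it was a member of the set. Cldn5 rose by 1.03 per log2 of Kdr (standard error 0.15, adjusted p = 0.00904). Of the 40 other endothelial genes and of the 12 erythroid genes, 0 passed in this fit. Kdr itself had a correlation of 0.824 with width, so slopes on it were less precise here. The standard error for Cldn5 was 0.11 without the covariate. A lack of calls in this fit therefore does not show that a gene does not vary with Kdr. Aplnr, the apelin receptor of growing vessels, had a slope of 0.79. The embryonic globin Hbb-bh1 had 1.005, and the transferrin receptor Tfrc of erythroid precursors had 1.02. Each had an adjusted p of 0.0887 in limma, so none passed, and they were picked after their values were seen. At an unadjusted p under 0.05 in limma, 1363 of all 19936 genes had a positive slope in this fit. The single gene with a negative slope in this fit was Cyb561a3 (-0.89, adjusted p = 0.0424), named for that value alone. Without wild type replicate 3 and mutant replicate 2, and with no covariate, 4 of the 9 endothelial genes and 1335 genes in all had a positive slope.

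**Figure D5:**
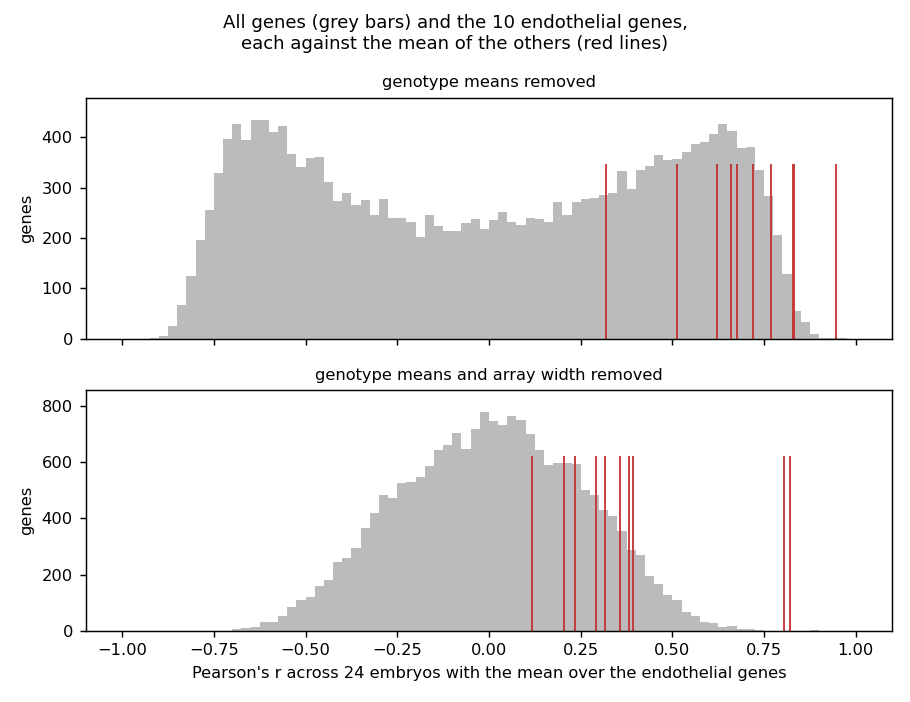
Number of genes at each Pearson correlation with the mean over the endothelial genes across 24 embryos (grey), with the endothelial genes as red lines, each against the mean of the other 9, with genotype means removed (top) and with array width removed too (bottom). The grey distribution has a peak on either side of 0 at the top and 1 peak near 0 at the bottom, where Kdr and Cldn5 stand at 0.819 and 0.805 and the other red lines lie between 0.117 and 0.392.

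The genes whose pattern was most like the mean over the endothelial genes were mostly not vascular markers. Among 14943 genes in the brighter part of the arrays, the 20 most alike had correlations from 0.866 to 0.943 over 24 embryos, in the order Hsdl1, Zdhhc2, Eea1, Acap2, Acsl5, Tspan12, Mmrn1, Arxes1, Mto1, Tstd2, Mtbp, Vav3, Mlst8, Dock11, Ttc27, Zfp2, Ankrd13c, Eif4b, Trnt1 and Plgrkt. Of these, 1 was on a marker list, Mmrn1 (0.883), whose correlation with array width was 0.965. The least alike were Ppy (-0.914), Ooep (-0.885), Slc39a5 (-0.883), Myt1l (-0.882) and H2al2a (-0.877). With width removed, 3 of the 20 remained among the 20 most alike, Hsdl1 (0.777), Zdhhc2 (0.748) and Tspan12 (0.708), a tetraspanin known for its part in retinal vessel growth. Of the 20 genes most alike with width removed, 0 were on a marker list.

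The 40 other endothelial genes leaned toward the same side. Their median correlation with the mean over the 10 genes was 0.310, and 29 of 40 were positive, against 51.0% of all genes. With width removed the median was 0.174 and 30 of 40 were positive, against 51.5% of all genes. Averaged over the list, their correlation with the 10 genes was 0.803, and 0.395 with width removed. The erythroid list, the blood that vessels carry, had 0.531 and 0.352. The list of ligands had 0.619 and -0.12, and the arterial, venous and lymphatic list had 0.325 and -0.04. The mural cell list had -0.10 and 0.181, and the macrophage list had 0.119 and 0.086. The limb mesenchyme list went from 0.196 to -0.54, the muscle precursor list from -0.48 to -0.09 and the Schwann cell list from -0.42 to 0.369. The platelet list had -0.04 and -0.19, and the surface ectoderm list had 0.103 and 0.049. These correlations of list means over 24 embryos of the same arrays are given as a description, and several moved widely or changed sign under other settings. Over 8 settings the limb mesenchyme list ran from -0.54 to 0.661, the macrophage list from -0.17 to 0.546, the surface ectoderm list from -0.27 to 0.577 and the arterial, venous and lymphatic list from -0.04 to 0.704. The other endothelial genes also moved, from 0.395 to 0.928, and the erythroid list from 0.247 to 0.685. These lists kept a positive sign, and the muscle precursor list kept a negative sign, from -0.55 to -0.09.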

How the data were processed

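Whole-transcript Affymetrix arrays (Mouse Gene ST design) were run on hindlimb bud RNA of 12 wild type and 12 Nipbl+/- embryos. The authors deposited log2 intensities per probe set, made with the Expression File Creator of GenePattern. The processing notes of the submitters name RMA. The RMA version was not given in the sources used here. RMA equalizes probe distributions between arrays, so changes common to most transcripts may be missed. Of 28159 probe sets, 21640 had 1 gene symbol, 1321 had several and 5198 had none listed. Keeping the brightest probe set where a gene had several left 19937 genes. All value columns were mapped to samples, 0 arrays were identical, and correlations between arrays were 0.988 to 0.998. The number of arrays limits the precision.

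Genotypes were compared with limma 3.58.1 in R 4.3.3 (Benjamini-Hochberg over all genes, calls at an adjusted p under 0.05), and slopes on Kdr in the same way with genotype in the model. Correlations were computed in Python 3.11.15 with 100000 permutations within genotype. On simulated data of 19937 genes, the genotype fit recovered 48% of genes changed by 0.2 (log2), 90% by 0.3, 98% by 0.45 and 100% by 0.65, with 8 false calls, and the fit of slopes recovered 81% at a slope of 0.5 and 100% at 1, with 10 false calls. Whether these rates hold on the arrays themselves, where many genes followed array width, was not tested. The genes and lists were chosen with earlier results of these data known. Named are all 10 genes, of each other list the called genes or the 3 with the smallest p, the 20 genes most and the 5 least like the mean over the 10 genes, and Nipbl. Cdh5, Ets1, Epcam, Dll4, Vegfa, Pf4, Tbx4, Pitx1, Aplnr, Hbb-bh1 (its slope), Tfrc and Cyb561a3 were named after their values were seen. Alternatives covered probe sets, dim genes, variance model, array weights, replicate number, sex, array medians, the gene used for slopes and the genotype. Array width as a covariate and leaving out the narrowest array of each genotype were added after seeing the data.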

Additional observations from a re-analysis of the deposited data

How the results depend on the processing

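In all 9 alternatives of the genotype comparison, 0 of the 10 endothelial genes passed the test in either direction. The lowest adjusted p in limma across the alternatives was 0.558. The mean of probe sets, the dim gene filter, the variance model and the replicate block left the log2 differences of these genes unchanged. For the 10 genes those settings bear on the p only. Directions turned for differences near 0: Pecam1 was -0.017 with sex and -0.0018 with array width as a covariate, Esam -0.0091 and -0.0071, and Cldn5 -0.019 with array weights. Erg was 0.156 with sex, against 0.08. Gp9 was -0.00062 and Ngfr 0.062 with sex. On the other lists, 2 genes rose and 4 fell. With sex 1 rose, with array medians at 0 1 rose and 2 fell, with array width 7 fell, and without the narrowest arrays 1 rose. Over all genes, 57 rose and 105 fell, against 37 and 67 with array medians at 0, 101 and 180 with array weights, 186 and 303 with array width, 30 and 95 with sex, and 63 and 147 without the narrowest arrays.

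Genes with a positive slope on Kdr numbered 4732 of all genes, 13 of the other endothelial genes and 8 of the set. They numbered 8002 and 24 with array medians at 0, 640, 4 and 3 with Tie1 in place of Kdr, 1383, 4 and 5 in Nipbl+/- embryos alone, 1, 0 and 1 with array width, 1335, 3 and 4 without the narrowest arrays, and 5 of the set with Pecam1 in place of Kdr. The median pairwise correlation of 0.518 was 0.677 in wild type embryos alone and 0.235 with array width removed.

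The labels do not say whether a replicate number marks a litter or a batch shared by both genotypes. Embryos of a shared litter need not have similar profiles, so the correlations of same-numbered embryos do not settle it. Same-numbered embryos had correlations from -0.35 to 0.28, above 0.1 in 5 of 12 pairs, and 4 embryos correlated best with their own number. With replicate number as a block, 48 genes rose and 121 fell, 0 of the set among them, 3 rose and 5 fell on the other lists, and the median pairwise correlation was 0.691. Array width and the narrowest arrays were chosen as settings after seeing the data. The cause of these shifts was not tested. At a log2 difference of 0.2, the simulated genotype fit recovered 48% of changed genes, so smaller differences would often be missed. Over 8 settings the correlation with the mean over the 10 genes ran from -0.12 to 0.819 for the ligand list, -0.37 to 0.181 for mural cells, -0.19 to 0.229 for platelets, -0.55 to -0.09 for muscle precursors and -0.72 to 0.369 for Schwann cells.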
